A study of Homo sapiens with 6 samples.

Results

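AluJ dimers and Alu monomers were followed in RNA of HEK293T cells, an embryonic kidney line of human origin that carries a viral T antigen. They were chosen by name alone: every repeat locus in the deposited tables whose repeat name starts with AluJ, FLAM, FRAM or FAM. This gave 41990 of the 433837 loci listed. The AluJ dimers numbered 38013, with 16439 loci of AluJb, 10307 of AluJr, 8775 of AluJo and 2492 of AluJr4. The Alu monomers numbered 3977, with 1916 loci of FLAM_C, 1056 of FLAM_A, 600 of FRAM and 405 of FAM. The 3 U7 ASO libraries came from cells given a chimeric, chemically modified antisense oligonucleotide (ASO) against U7 small nuclear RNA at 100 nM with a lipid reagent, and carry the genotype label "U7 snRNA knockdown". The 3 control ASO libraries carry the label "WT", and per the protocol their ASO was directed against GFP. The control ASO was also given at 100 nM. All 6 libraries were total RNA depleted of ribosomal RNA. The series calls the replicates of each ASO biological, and all come from 1 cell line, so the p-values below cover the spread between transfections of that line.

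Alu elements are short retrotransposons of primates that descend from the gene for 7SL RNA, the RNA of the signal recognition particle. They code for no protein and were copied with the machinery of LINE-1 elements. AluJ is the oldest group of the dimeric form, in which a left and a right arm are joined by an A-rich linker and the left arm holds an internal promoter for RNA polymerase III. FAM, FLAM and FRAM are older still: FAM is the fossil monomer, FLAM the free left arm and FRAM the free right arm. Because these sequences sit in many introns and untranslated regions, reads on them can come from longer transcripts that cross them, and a count per locus does not tell such reads from those of an RNA that begins in the element. U7 RNA guides cleavage of the 3' end of histone pre-mRNAs. HERV9 is a family of endogenous retroviruses whose terminal repeats are named LTR12, and some LTR12 copies are known promoters of RNA polymerase II.

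The tables held between 2089822 and 2819540 reads on repeats in U7 ASO libraries and between 1926892 and 2025985 in control ASO libraries. A single locus of 7SK, an abundant nuclear RNA, took 16.5% to 19.5% of these reads in U7 ASO libraries and 19.8% to 21.6% in control ASO libraries. The knockdown itself could not be checked here: the 16 listed repeat loci named U7 together had 10, 4 and 6 reads in U7 ASO libraries and 10, 6 and 12 reads in control ASO libraries.

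AluJ dimers as a whole had 59523, 85719 and 100729 reads in U7 ASO libraries 1, 2 and 3 and 49747, 51702 and 56239 reads in control ASO libraries 1, 2 and 3. As a share of all repeat reads this was 2.85%, 3.65% and 3.57% in U7 ASO libraries and 2.46%, 2.68% and 2.84% in control ASO libraries. U7 ASO libraries 2 and 3 stood above all controls, while U7 ASO library 1 lay just above the highest control. In CPM, reads scaled to a common library size, AluJ averaged 33100 ± 4440 with U7 ASO and 27108 ± 587 with control ASO (SD, n = 3 each). The log2 fold change was 0.29 ± 0.12 (SE, 95% interval 0.038 to 0.54), which did not pass the test (edgeR quasi-likelihood test, Benjamini-Hochberg adjusted p = 0.258, unadjusted 0.0262). Without U7 ASO replicate 1 it was 0.40 and passed, with an adjusted p of 0.00618 by the same edgeR test.

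Alu monomers together had 5965, 8038 and 8436 reads in U7 ASO libraries and 5390, 5705 and 6477 reads in control ASO libraries. Their share of repeat reads was 0.285%, 0.342% and 0.299% in U7 ASO libraries and 0.266%, 0.296% and 0.327% in control ASO libraries, so the groups overlapped. The log2 fold change was 0.013 ± 0.15 (SE, 95% interval -0.30 to 0.32; edgeR adjusted p = 0.98). That interval still includes changes as large as the one estimated for AluJ.

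Dimers were therefore set against monomers within each library, a ratio that needs no scaling. The log2 ratio of AluJ to monomer reads was 3.32, 3.41 and 3.58 in U7 ASO libraries and 3.21, 3.18 and 3.12 in control ASO libraries. The ASO groups did not overlap, with U7 ASO higher. The mean difference was 0.27, with an exact two-sided permutation p of 0.1, the smallest that 3 libraries against 3 can give (0.16 after Benjamini-Hochberg adjustment over 8 ratios). Monomers against AluS, the younger and most numerous dimers, differed the other way: the log2 ratio was -4.17 ± 0.11 with U7 ASO and -3.88 ± 0.17 with control ASO (SD, n = 3 each; difference -0.29, exact permutation p = 0.1, adjusted 0.16). AluJ against AluS differed by -0.019 (exact permutation p = 0.9) and AluJ against AluY, the youngest dimers, by -0.16 (exact permutation p = 0.6). The sums of AluS and AluY themselves had log2 fold changes of 0.31 and 0.44, with edgeR adjusted p-values of 0.201 and 0.192. Like AluJ, both passed without U7 ASO replicate 1 (edgeR adjusted p = 0.00363 and 0.0305).

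None of the 8 repeat names passed the test, where 1.52% of all 2236 names tested were raised and 1.03% were lowered (adjusted p under 0.05 in edgeR). AluJb had 26722, 38698 and 45633 reads in U7 ASO libraries and 21743, 22717 and 24656 in control ASO libraries. Its log2 fold change was 0.32 ± 0.13 (SE) with an edgeR adjusted p of 0.235, and 0.44 with an adjusted p of 0.00721 when U7 ASO replicate 1 was left out. AluJr4, AluJr and AluJo had log2 fold changes of 0.28, 0.25 and 0.23. Of these 4 dimer names, the scaled values of AluJb and AluJr did not overlap between the ASOs, as at 20.1% of all names tested, while those of AluJo and AluJr4 did.

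All 4 monomer names overlapped between the ASOs. FAM, the fossil monomer, had a log2 fold change of 0.18 ± 0.24 (SE), and control ASO values that ran from 170 to 341 CPM enclosed its U7 ASO values of 265 to 331 CPM. The free left arms FLAM_A and FLAM_C had log2 fold changes of -0.0027 and -0.0049, and the free right arm FRAM -0.043 ± 0.18 (SE). The log2 ratio of left to right arms, FLAM to FRAM, differed by 0.037, less than the spread between control libraries, and was 2.32 ± 0.025 with U7 ASO and 2.28 ± 0.083 with control ASO (SD, n = 3 each; exact permutation p = 0.7).

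**Figure D1:**
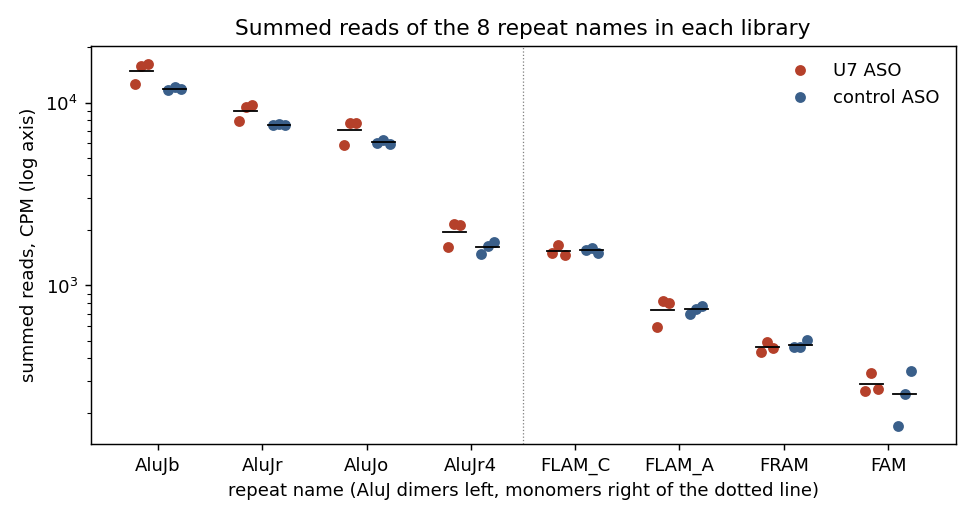
Summed reads of each repeat name in CPM (log axis) in the 3 U7 ASO libraries (red) and the 3 control ASO libraries (blue), 1 point per library with a bar at the mean. U7 ASO points of AluJb lie between 12563 and 16235 CPM, above the control points at 11641 to 12192 CPM, while the groups of each monomer name overlap; heights of different names are not corrected for length or number of loci.

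Single loci were mostly too sparse to test. Of the AluJ loci, 64.0% had reads in only 1 library, and of the monomers 67.8%. The filter on low counts left 756 AluJ loci and 82 monomer loci. Of these 838, 18 were raised and none was lowered, against 4.49% raised and 0.473% lowered among all 14380 loci tested (edgeR adjusted p under 0.05). The test of single loci found few changes in simulated data. It called 2% of loci raised 2-fold, 10% raised 4-fold, 56% raised 8-fold and 2% of those lowered to 0.25-fold. A locus without a call may therefore still have changed. At an unadjusted p under 0.05 there were 77 members, and DESeq2 called 26 raised and 3 lowered. The raised members numbered 4, 8 and 5 without U7 ASO replicates 1, 2 and 3, 9 without control ASO replicate 2, and 5 by limma-voom. Outside LTR12 and HERV9 themselves, 2.28% of loci were raised, close to the 2.15% of members. U7 ASO and control ASO values did not overlap at 15.99% of the members tested, with U7 ASO higher at 88 and lower at 46, and at 20.6% of all loci tested. The median log2 fold change was 0.16 over the members tested and 0.063 over all loci tested.

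By name, 9 of 333 AluJb loci tested were raised, 5 of 206 of AluJr, 2 of 172 of AluJo and 1 of 45 of AluJr4. Of the monomers, 1 of 38 FLAM_C loci was raised. The other monomer loci tested, 24 of FLAM_A, 15 of FRAM and 5 of FAM, held no call.

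Most raised members were not detected in control libraries: 11 of the 18 had 0 reads in all 3 control ASO libraries. Such a locus passes the filter on low counts only through its U7 ASO reads, so it could only be called raised. AluJb_dup2401_5315197 had 44, 86 and 115 reads in U7 ASO libraries and none in control ASO libraries, at least 74.9-fold higher when the control group is set to a floor of 3 reads in all (edgeR adjusted p = 0.000136). Most counts were even, which fits a count of each mate separately. If mates were counted so, such bounds would be lower and counting intervals wider than given. Here and below, "at least" refers to the floor of 3 reads alone and leaves out the spread between libraries. AluJb_dup5129_1805502 had 66, 68 and 61 reads with U7 ASO and none with control ASO, at least 59.6-fold higher (edgeR adjusted p = 0.000179). These were the only loci of the 18 that stayed past the threshold in all 13 alternative analyses. In such an identifier the last number runs through the list of repeats and the one before it numbers the copies of the name. No position or length comes with them.

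The next loci by size were also AluJ. AluJo_dup6151_399726 had 84, 19 and 43 reads with U7 ASO and none with control ASO, at least 44.6-fold higher (edgeR adjusted p = 0.00151; 0.103 without U7 ASO replicate 1). AluJb_dup4156_3106977 had 34, 27 and 70 reads with U7 ASO, and AluJb_dup2417_4363914 had 52, 22 and 48. Both had 0 control ASO reads and were at least 40.0-fold and 37.3-fold higher. The call of AluJb_dup4156_3106977 was lost without U7 ASO replicate 3 (edgeR adjusted p = 0.0547) and that of AluJb_dup2417_4363914 without U7 ASO replicate 1 (edgeR adjusted p = 0.0779).

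The 10 largest folds were completed by 5 more AluJ loci with 0 control reads, from AluJb_dup5119_1101284 (24, 25 and 39 reads with U7 ASO, at least 26.9-fold higher) down to AluJr_dup543_493039 (16, 15 and 26 reads, at least 17.4-fold higher). Between them came AluJb_dup4264_1062252, AluJr_dup3086_4751472 and AluJb_dup3280_4994154, with 80, 71 and 60 reads in all, every one from U7 ASO libraries. The calls of these 5 were lost in 3 to 11 of the 13 alternatives, most often for AluJr_dup543_493039. AluJb_dup1444_4942677 (20, 16 and 20 reads with U7 ASO, 0 control reads) followed, at least 17.1-fold higher, and its call was lost in 11 of the 13. The edgeR 95% intervals of AluJb_dup5119_1101284, AluJr_dup543_493039 and AluJb_dup1444_4942677 began below these bounds, at log2 fold changes of 4.64, 3.11 and 3.10.

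AluJ loci with some control signal were raised as well. AluJb_dup1370_1907553 had 111, 67 and 60 reads with U7 ASO and 0, 5 and 1 with control ASO (log2 fold change 5.12 ± 0.80, SE; edgeR adjusted p = 0.00105). AluJr_dup9_1219722 had 63, 80 and 179 reads with U7 ASO and 0, 6 and 10 with control ASO (log2 fold change 4.15 ± 0.74, SE; edgeR adjusted p = 0.00276). In neither did the groups overlap, and each call was lost in 2 of the 13 alternatives, without U7 ASO replicate 1 for AluJb_dup1370_1907553 (adjusted p = 0.0639) and without U7 ASO replicate 3 for AluJr_dup9_1219722 (adjusted p = 0.0823), and by limma-voom for both. AluJo_dup3072_4751663 had 36, 41 and 20 reads with U7 ASO and 2, 0 and 0 with control ASO, 44.5 times as many for equal depth with a 95% counting interval of 11.98 to 372 (edgeR adjusted p = 0.0134; lost in 7 of the 13 alternatives). AluJr_dup660_4925419, the raised AluJ locus with the most control reads, had 38, 62 and 76 reads with U7 ASO and 12, 12 and 15 with control ASO (log2 fold change 2.03 ± 0.52, SE; edgeR adjusted p = 0.0366), a call lost in 10 of the 13 alternatives.

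**Figure D2:**
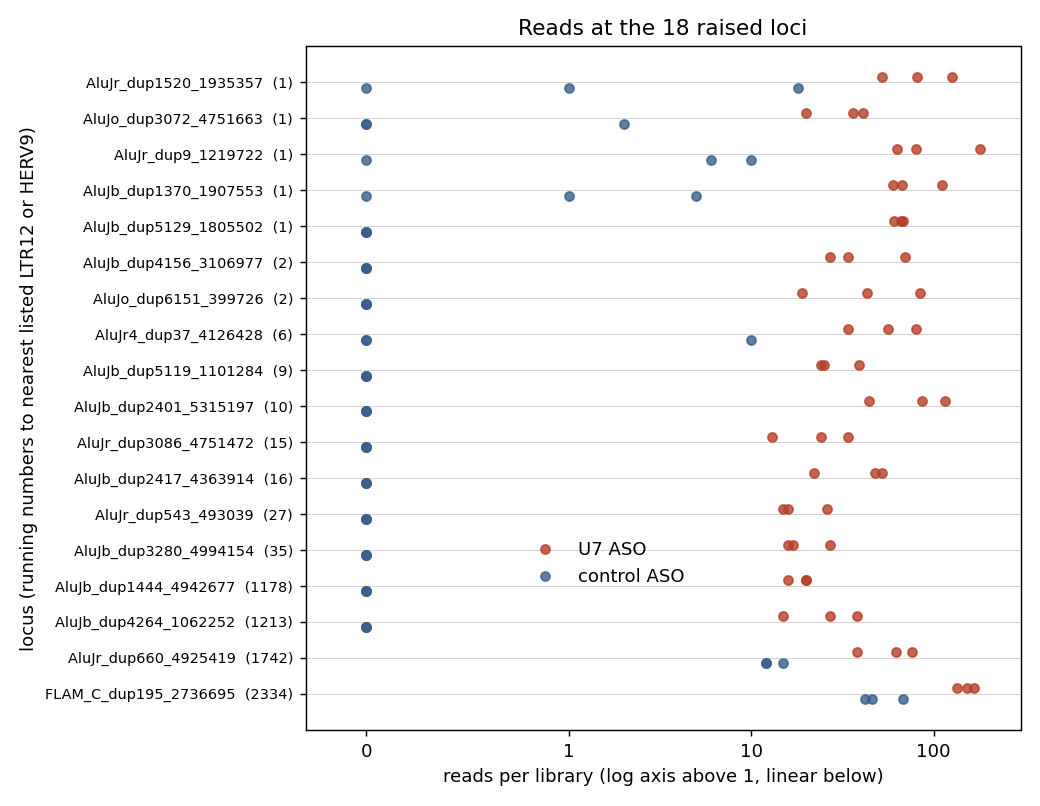
Reads per library at the 18 raised loci, U7 ASO in red above control ASO in blue, 1 point per library, on an axis that is linear below 1 read and logarithmic above. Loci run down the page by the distance, in running numbers, to the nearest listed LTR12 or HERV9 locus, given in brackets: 12 of the 18 lie within 20, and 11 have all their control points at 0.

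Most raised AluJ loci were neighbours of LTR12 and HERV9 elements in the list of repeats. The running number was used as an order, and near, beside and adjoining refer to that order. Whether it follows the genome could not be checked without coordinates, and distances in bases are not known. Of the 18 raised members, 12 (66.7%) lay within 20 running numbers of a listed LTR12 or HERV9 locus, all of them AluJ, and 5 were the next entry to one. Counting only LTR12 or HERV9 loci that were themselves raised, 9 of the 18 had one within 20. Of the 820 members tested and not raised, 11 (1.34%) lay as near. Among raised loci that were neither members nor LTR12 or HERV9, 148 of 299 (49.5%) lay as near, so the neighbourhood was shared with other repeats. With 0 control reads, 11 of the 18 raised members were tested only through U7 ASO reads and could only count as raised. The shares of raised and not raised members therefore describe the neighbourhood and are no test of it. The tables list a locus only if some library had a read there, so an LTR12 locus read only with U7 ASO adds to the list of neighbours: of 2670 listed LTR12 and HERV9 loci, 782 had a control read. With only those 782 counted as neighbours, fewer raised AluJ loci lay within 20. There, 7 of 16 AluJ loci tested were raised, and 10 of 740 tested further away.

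Of the 5 raised AluJ loci next to an LTR12C, 4 had a raised LTR12C there. AluJr_dup1520_1935357 had 81, 52 and 127 reads with U7 ASO and 0, 1 and 18 with control ASO (log2 fold change 3.63 ± 0.88, SE; edgeR adjusted p = 0.0256). This call was lost in 6 of the 13 alternatives, and the log2 fold change was 6.92 without control ASO replicate 3. The adjoining LTR12C_dup128_1935356 had 1667, 810 and 1285 reads with U7 ASO and 42, 57 and 51 with control ASO. Beside AluJr_dup9_1219722, LTR12C_dup2_1219721 had 218, 160 and 376 reads with U7 ASO and 14, 10 and 22 with control ASO. Of the U7 ASO libraries, library 2 had the fewest reads at both loci of the first pair, and in the second pair only at the LTR12C. The exception was AluJo_dup3072_4751663, beside LTR12C_dup32_4751664, which was too sparse to test with 16, 10 and 12 reads with U7 ASO and 0, 1 and 0 with control ASO. AluJb_dup2401_5315197, the locus with the largest fold, was 10 running numbers from an LTR12C that was not raised, and the nearest raised one was 21613 away.

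Other repeats around a raised AluJ could rise with it. AluJo_dup6151_399726 had 6 raised loci within 20 running numbers, among them LTR12C_dup162_399724, 2 numbers away, with 1059, 550 and 695 reads with U7 ASO and 0, 0 and 20 with control ASO. AluJr4_dup37_4126428 (34, 56 and 80 reads with U7 ASO; 10, 0 and 0 with control ASO) had 4 raised loci within 20, including LTR12D_4126420 and the HERV9 interior HERV9NC-int_4126421. Its own call was lost in 7 of the 13 alternatives, and its log2 fold change, 3.89 in the main analysis, was 8.76 without control ASO replicate 1. By contrast, 7 of the 18 raised members had no other raised locus within 20 running numbers.

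The neighbourhood was then examined on reads summed over all listed loci of a class, without choosing single loci by their change. The split by distance was chosen after the values were seen, and the AluJ sum includes the 12 raised loci. It is therefore not an independent test of the neighbourhood, and its p-value does not allow for that choice. The 803 AluJ loci within 20 running numbers of a listed LTR12 or HERV9 locus had 2197, 2396 and 3748 reads in U7 ASO libraries and 685, 804 and 858 reads in control ASO libraries. Every U7 ASO library had more than any control library. The summed level was 1119 ± 189 CPM with U7 ASO and 403 ± 34.4 CPM with control ASO (SD, n = 3 each), a log2 fold change of 1.47 ± 0.19 (SE, 95% interval 1.08 to 1.86; edgeR adjusted p = 2.65e-05), or 2.77-fold. Of all features in that fit, 1.57% were raised. The call held in all 17 alternatives, with log2 fold changes from 0.97 to 1.93. Counting only LTR12 and HERV9 loci with a control read as neighbours gave 1.18.

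The change was spread over many loci. The 12 raised loci contributed 663, 556 and 866 of these reads in U7 ASO libraries and 12, 12 and 29 in control ASO libraries. The other 791 loci, most of them too sparse to test singly, had 1534, 1840 and 2882 reads with U7 ASO and 673, 792 and 829 with control ASO. Since raised loci were chosen for their change, this split is a description. Of the 803 loci, 62.6% had reads in U7 ASO libraries only and 15.9% in control ASO libraries only, whereas over 100 running numbers away these shares were 48.2% and 25.8%.

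The change of AluJ was smaller with distance in the list. The 67 loci next to an LTR12 or HERV9 locus had 627, 474 and 760 reads with U7 ASO and 53, 90 and 92 with control ASO, a log2 fold change of 2.65 (95% interval 2.08 to 3.22). At 2 to 5 running numbers the log2 fold change was 1.495 (0.99 to 2.00) and at 6 to 20 it was 1.14 (0.73 to 1.55). At 21 to 50 it was 0.40 (0.026 to 0.78; edgeR adjusted p = 0.301), and at 51 to 100 it was 0.11 (-0.23 to 0.44). The nearest 3 bins passed the test, where 1.65% of all features in that fit were raised, and those from 21 on did not, although beyond 100 and up to 200 the value was again 0.41 (0.078 to 0.75; edgeR adjusted p = 0.216).

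**Figure D3:**
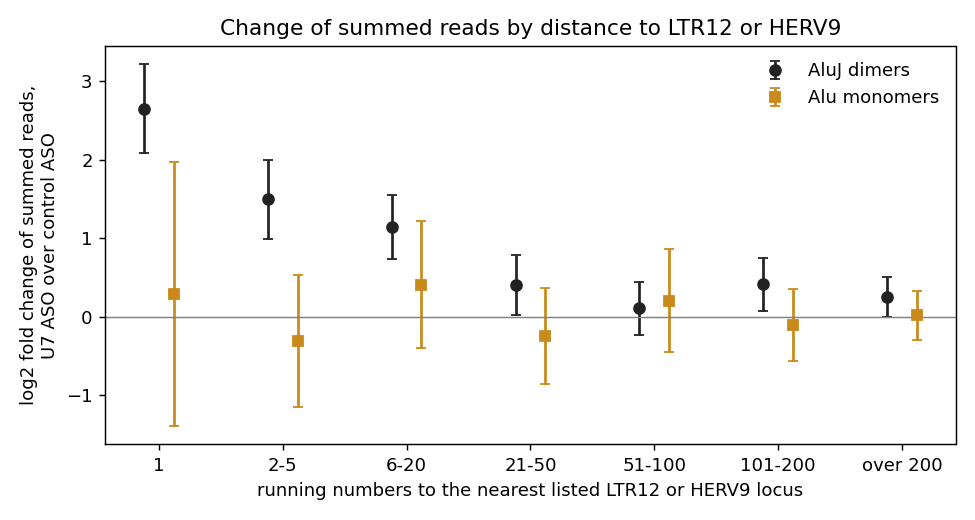
Log2 fold change of summed reads, U7 ASO over control ASO, in 7 bins of distance in running numbers to the nearest listed LTR12 or HERV9 locus; points are edgeR estimates and bars their 95% intervals. AluJ dimers (black circles) decline from 2.65 at distance 1 to 0.11 at 51 to 100, and the monomer intervals (ochre squares) include 0 in every bin, with only 6 loci in the first.

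Far from LTR12 the AluJ sum was near its overall value. The 34943 AluJ loci over 100 running numbers away had 53288, 78004 and 90487 reads with U7 ASO and 45682, 47428 and 51394 with control ASO. Their log2 fold change was 0.26 (95% interval 0.0085 to 0.52; edgeR adjusted p = 0.318), and the scaled values of the groups overlapped. Set against each other within a library, near and far AluJ differed by 1.21 in log2 ratio, -4.74 ± 0.25 with U7 ASO and -5.95 ± 0.096 with control ASO (SD, n = 3 each; exact permutation p = 0.1, adjusted 0.16). Loci near LTR12 made up 2.80% to 3.72% of AluJ reads with U7 ASO and 1.38% to 1.56% with control ASO.

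As a comparison, the same count was made around THE1, repeats of another retrovirus family, with 4459 listed loci whose name starts with THE1. How many of them had a control read was not counted, so the lists of THE1 and LTR12 may differ in that. The 1798 AluJ loci within 20 running numbers of THE1 had a log2 fold change of 0.18 (95% interval -0.18 to 0.54; edgeR adjusted p = 0.721).

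Each AluJ name showed the change beside LTR12. AluJb had 1048, 1116 and 1760 reads there with U7 ASO and 280, 320 and 415 with control ASO, a log2 fold change of 1.59 ± 0.21 (SE). AluJo had 407, 434 and 625 reads with U7 ASO and 141, 139 and 95 with control ASO, also 1.59 (SE 0.26). AluJr and AluJr4 had log2 fold changes of 1.22 and 1.41. All 4 passed the test (edgeR adjusted p from 4.75e-05 to 0.0248), with no overlap between the ASOs, where 1.69% of all features in that fit were raised.

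Monomers beside LTR12 did not show it, but there were few of them. The 86 monomer loci within 20 running numbers had 190, 141 and 259 reads with U7 ASO and 94, 184 and 159 with control ASO. The groups overlapped, and the log2 fold change was 0.088 (95% interval -0.55 to 0.73; edgeR adjusted p = 0.933). That interval lies below that of AluJ within 20. The separation was lost when only LTR12 and HERV9 loci with a control read counted as neighbours. Near monomers then had 0.41 (-0.43 to 1.25) and near AluJ 1.18 (0.78 to 1.58), and these intervals overlap. The values that follow again count all listed LTR12 and HERV9 loci as neighbours. Within 20 running numbers the log2 ratio of AluJ to monomers was 3.53, 4.09 and 3.86 with U7 ASO and 2.87, 2.13 and 2.43 with control ASO. The difference was 1.35 with no overlap (exact permutation p = 0.1, the smallest possible, adjusted 0.16). This ratio was not tested with only LTR12 and HERV9 loci that had a control read. By name the monomers varied: FLAM_A, with 31, 24 and 53 reads with U7 ASO and 6, 7 and 32 with control ASO, had a log2 fold change of 0.94 (95% interval -0.53 to 2.40), FLAM_C 0.27 (-0.60 to 1.13) and FRAM -0.54 (-1.40 to 0.31), none of which passed. Over 100 running numbers away the monomer sum had a log2 fold change of 0.0090 (95% interval -0.30 to 0.32).

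The change near LTR12 was not particular to AluJ among dimers. AluS loci within 20 running numbers had 3993, 3942 and 5978 reads with U7 ASO and 1188, 1321 and 1209 with control ASO, a log2 fold change of 1.56 (95% interval 1.20 to 1.92; edgeR adjusted p = 5.88e-06). AluY there had a log2 fold change of 1.83 (1.36 to 2.29; edgeR adjusted p = 1.64e-05). Of all features in that fit, 1.63% were raised. Both intervals overlap that of AluJ.

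**Figure D4:**
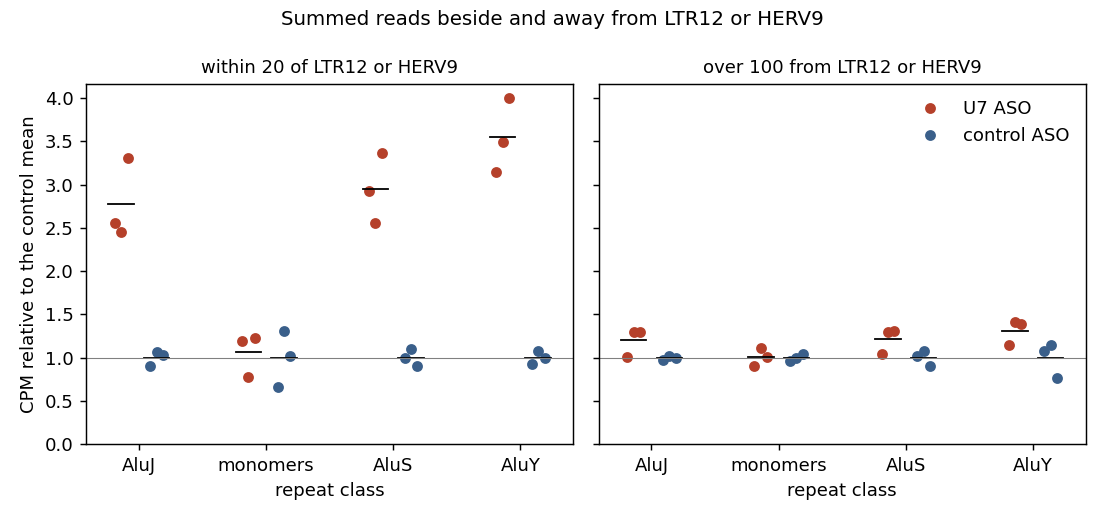
Summed CPM divided by the control mean for AluJ, monomers, AluS and AluY, within 20 (left) and over 100 (right) running numbers of a listed LTR12 or HERV9 locus; red points are U7 ASO libraries, blue points control ASO libraries, and bars are means. Near LTR12 the U7 ASO mean of AluJ is 2.77 times the control mean, while monomer points of the ASOs overlap on both sides.

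The only raised monomer was FLAM_C_dup195_2736695. It had 153, 166 and 134 reads with U7 ASO and 42, 46 and 68 with control ASO, a log2 fold change of 1.43 ± 0.35 (SE; edgeR adjusted p = 0.0285). The groups did not overlap, but the call was lost in 8 of 13 alternatives, among them the scaling by library totals alone (adjusted p = 0.0546). The nearest listed LTR12 locus was 2334 running numbers away, and the entry after it, L2c_dup1579_2736696, had 31, 85 and 85 reads with U7 ASO and 2, 37 and 6 with control ASO, which did not pass.

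The other monomers with the most reads had differences in both directions and none passed the test. FLAM_C_dup1041_5021015 had 198, 164 and 96 reads with U7 ASO and 227, 186 and 79 with control ASO, a log2 fold change of -0.21 ± 0.43 (SE). FLAM_C_dup515_3036321 had 48, 133 and 146 reads with U7 ASO and 163, 234 and 211 with control ASO, every U7 ASO count below every control count (log2 fold change -1.04 ± 0.39, SE; edgeR adjusted p = 0.215). Its neighbours on both sides were lowered: the simple repeat (GCAGAGG)n_3036320 by a log2 fold change of -1.48 and G-rich_dup210_3036322 by -1.33 (edgeR adjusted p = 0.000574 and 0.00247). Whether these reads come from 1 transcript was not tested.

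A pair of FLAM_C copies 50 running numbers apart differed in direction. FLAM_C_dup416_3563970 had 75, 71 and 134 reads with U7 ASO and 127, 126 and 216 with control ASO (log2 fold change -0.88 ± 0.35, SE; edgeR adjusted p = 0.285). FLAM_C_dup418_3564020 had 119, 120 and 111 reads with U7 ASO and 81, 87 and 38 with control ASO (0.63 ± 0.39, SE; edgeR adjusted p = 0.646). Neither passed the test.

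The AluJ loci with the most reads did not pass the test. AluJb_dup660_4628392, the most read member, had 588, 494 and 333 reads with U7 ASO and 586, 471 and 616 with control ASO (log2 fold change -0.34 ± 0.30, SE; edgeR adjusted p = 0.826). AluJr_dup2320_4714349 had 196, 254 and 292 reads with U7 ASO and 129, 225 and 150 with control ASO (0.42 ± 0.32, SE), and again the groups overlapped. AluJr_dup594_5258885, AluJb_dup3299_4702906 and AluJr_dup2291_2852393 had log2 fold changes of -0.15, 0.22 and 0.30, with standard errors of 0.30 to 0.33. None of the 5 passed, and none lay within 20 running numbers of a listed LTR12 or HERV9 locus.

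The AluJ sum was split by the filter on low counts, which the reads of both ASOs decide, so the split is a description. The 756 AluJ loci that passed the filter had 17146, 18302 and 21729 reads with U7 ASO and 15296, 15265 and 16095 with control ASO, a log2 fold change of -0.047 ± 0.13 (SE). The 37257 AluJ loci below it had 42377, 67417 and 79000 reads with U7 ASO and 34451, 36437 and 40144 with control ASO, 0.41 ± 0.13 (SE; edgeR adjusted p = 0.132). Scaled within each side of the filter instead, AluJ had 0.15 among loci that passed (edgeR adjusted p = 0.649) and 0.17 among those that did not (edgeR adjusted p = 0.462), so the contrast between the sides depended on the scaling. Monomers below the filter had 0.14 and those above it -0.24, neither past the test. The 10 most read loci took 2.03% to 3.61% of AluJ reads with U7 ASO and 3.45% to 3.78% with control ASO, and those of the monomers took 11.8% to 17.8% of monomer reads with U7 ASO and 15.8% to 19.1% with control ASO.

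The number of AluJ copies with a read overlapped between the ASOs. With at least 1 read there were 9569, 14197 and 14029 AluJ loci with U7 ASO and 7718, 9724 and 8312 with control ASO. Brought to an equal 49747 AluJ reads per library, the number was 11476 ± 1908 with U7 ASO and 8523 ± 1015 with control ASO (SD, n = 3 each), 1.35 times as many (exact permutation p = 0.2). Monomers at an equal 5390 reads gave 1133 ± 157 loci with U7 ASO and 918 ± 79.7 with control ASO, 1.23 times as many (exact permutation p = 0.2). All repeat loci together, brought to an equal 1926892 reads on all repeats instead of member reads, gave 1.30 times as many. With at least 10 reads as the limit the ratio was 0.715 for AluJ and 0.828 for monomers (exact permutation p = 0.2 for each), against 1.01 for all repeat loci (exact permutation p = 1.0).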

How the data were processed

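The authors deposited 1 table per library of read counts per repeat locus, not normalized. FastQC 0.11.5, STAR 2.5.3a, featureCounts 1.5.0-p1 (Subread) and the GRCh38 build were used, per the submitters' processing notes. Not given in the sources used here are the repeat annotation, the strand setting, the counting of pairs and the handling of reads that map to several places, so reads of near-identical copies may be split or moved between loci and a single locus is less certain than a sum. Between 71.4% and 78.3% of the members' counts above 0 were even, so mates may have been counted separately and reads may not be independent fragments. The tables hold no coordinates, and no sequence is shown.

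Counts were joined by locus over 6 libraries, with a missing locus as 0. Loci, repeat names and class sums were each tested over the whole table in edgeR 4.0.16 (quasi-likelihood, two-sided, R 4.3.3) after TMM scaling and filterByExpr (minimum count 10, total 15), with Benjamini-Hochberg adjustment over all features of that table and a threshold of 0.05. Standard errors and 95% intervals were derived from the fold change and its test statistic. Ratios and numbers of loci were compared by exact two-sided permutation tests over libraries (scipy 1.17.1). Intervals and floors (3 reads) on counts cover counting error only. The steps were tested on simulated data. Alternatives were RLE, upper-quartile and library-total scaling, no filter, DESeq2 1.42.0, limma-voom (limma 3.58.1), a replicate block, leaving out each library and other choices of loci. The members, lists and comparisons were chosen with earlier results of these data known, and the splits by distance to LTR12 or HERV9 and to THE1, with their windows and ratios, were added after the values were seen. Leaving out members within 20 running numbers of LTR12 or HERV9 was not among these additions. Named loci are the 10 largest changes in each direction among called loci whose groups did not overlap, and the 5 most read of each class. The other 7 raised loci and the neighbours were named after their values were seen.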

Additional observations from a re-analysis of the deposited data

How the results depend on the processing

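The sum of AluJ within 20 running numbers of LTR12 or HERV9 stayed past the threshold in all 17 alternatives (log2 fold change 0.97 to 1.93). With a window of 5, 10 or 50 running numbers the near monomers had -0.20, -0.011 or -0.078, and -0.12 to 0.34 with a library left out. With only LTR12 or HERV9 loci that had a control read as neighbours, the near monomers had 0.41. The sum of all AluJ ran from 0.23 to 0.40, and that of all members from 0.21 to 0.37, when a library was left out. Both passed only without U7 ASO replicate 1. The sum of monomers was -0.0052 with upper-quartile scaling, -0.048 over loci that pass the filter, -0.081 over those that do not (added after the data were seen), and -0.049 to 0.076 with a library left out. None of these monomer values passed.

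The number of raised members was 5 with limma-voom, 26 with DESeq2 and 4 to 14 with a library left out: 4, 8 and 5 without U7 ASO replicates 1, 2 and 3 and 9 without control ASO replicate 2. The members lowered were 3 with DESeq2 and 0 to 1 with a library left out. The causes were not tested. At least 10 reads gave 0.715 times as many AluJ loci and 0.828 times as many monomer loci. The log2 ratio of FLAM to FRAM differed by -0.0096 without members near LTR12. With a library left out it differed by -0.0091 to 0.072, that of AluJ to AluS by -0.066 to 0.054 and that of AluJ to AluY by -0.27 to 0.012.

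Names near 0 changed sign. FLAM_A had 0.0067 with RLE scaling, 0.050 with library totals, 0.014 without the filter and 0.0068 with DESeq2. FLAM_C had 0.0032, 0.053, 0.010 and 0.0032 under the same settings, and FRAM 0.0100 with library totals. With a library left out FAM ran from -0.031 to 0.45, FLAM_A from -0.076 to 0.14, FLAM_C from -0.052 to 0.042, FRAM from -0.085 to 0.011 and the locus FLAM_C_dup1041_5021015 from -0.59 to 0.10. Upper-quartile scaling moved the median of all loci from 0.063 to -0.089.

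Same-numbered libraries correlated in their deviations at 0.11, -0.030 and 0.12 over repeat names, and differently numbered ones at -0.15 to 0.056. Replicates 1 and 3 thus had the highest values of any pair, but all values were small, and the replicate numbers were not taken as pairs. With the replicate block AluJ had 0.28, monomers 0.010 and AluJ near LTR12 1.46, with 14 raised members, 13 of them also raised without it. The block changed no call of a member sum or name, and took AluY past the threshold (0.45, edgeR adjusted p = 0.0493). Over all repeat names it gave 59 raised and 74 lowered, against 34 and 23 without it. Single loci are limited by depth: 64.4% of members had reads in only 1 library.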
